A study of Mus musculus with 3 samples.

Results

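The genes examined were 10 of the 32285 in the deposited count tables, chosen by symbol because their products build or mineralize bone matrix: *Ibsp*, *Spp1*, *Dmp1*, *Bglap*, *Ifitm5*, *Alpl*, *Smpd3*, *Phospho1*, *Phex* and *Panx3*. They were measured in single cells of the soft palate of C57BL/6 mouse embryos at E14.5 in 2 control libraries and 1 library labelled Osr2-Cre;Alk5fl/fl, named the mutant here. *Alk5* is the older symbol of *Tgfbr1*, a type I TGF-β receptor, and Osr2-Cre is a Cre recombinase driven by *Osr2*, which is active in palatal mesenchyme. The labels give the controls no genotype beyond that word, and in the study's mouse work littermates with floxed *Tgfbr1* and no Cre served as controls. How many embryos each library pools was not given in the sources used here.

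Bone of the palate forms by direct ossification of neural crest-derived mesenchyme. Cells committed by *Runx2* and then *Sp7* (osterix) secrete collagen and acidic glycoproteins, bud off matrix vesicles and hydrolyse pyrophosphate, an inhibitor of crystal growth, so that calcium phosphate can be laid down. Osteocalcin and *Dmp1* are known as markers of later osteoblasts and osteocytes, whereas alkaline phosphatase is known to be present early.

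After cells with under 500 genes, over 10% mitochondrial UMIs or high doublet scores were left out, 2058, 3689 and 7514 cells remained in control 1, control 2 and the mutant. The gene and mitochondrial limits removed 699 of 2816, 246 of 4067 and 579 of 8690 barcodes, the largest share in control 1. UMIs, the unique molecular identifiers that count transcripts, summed to between 22624711 and 63505144 per library over all barcodes, and 18 to 49 barcodes were shared by each pair of libraries. Cells were assigned to types by fixed marker genes, none of which is among the 10, and between 59.8% and 70.2% of cells fell in the mesenchyme. Mesenchymal cells with at least 1 *Sp7* UMI (Sp7-positive) numbered 142, 117 and 663. The remaining 1089, 2474 and 4058 mesenchymal cells, with no *Sp7* UMI (Sp7-negative), gave the level for comparison. A cell can express *Sp7* without a UMI being counted, so this group can hold cells of the bone lineage. Sp7-positive cells made up 11.5% (95% exact Clopper-Pearson interval 9.80 to 13.5), 4.52% (3.75 to 5.39) and 14.0% (13.1 to 15.1) of mesenchymal cells, so the intervals of the controls did not overlap. When *Sp7* was counted after every cell had been thinned to 2000 UMIs the shares were 3.19% (2.28 to 4.34), 1.91% (1.40 to 2.54) and 5.78% (5.11 to 6.501), and the intervals of the controls overlapped. *Tgfbr1* was counted at 42.1, 54.7 and 44.5 CPM (the gene's share of the summed UMIs, scaled to a common total) in Sp7-positive cells of control 1, control 2 and the mutant. A 3′ tag outside the deleted part checks nothing, and whether the tag lies there is not given in the sources used here. Where values of the 3 libraries are given in a row, they stand in the order control 1, control 2, mutant, and intervals cover counting error only.

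Promoter sequences of 5 of the genes are shown because these genes had the most different readouts: *Ibsp*, *Ifitm5* and *Alpl* were counted in Sp7-positive cells of every library, *Spp1* in 1 control almost alone, and *Bglap* hardly at all. Windows for 8 of the 10 genes were found in RefSeq (mouse GRCm38.p6), 11 windows in all. Each line gives, 5′ to 3′ on the gene's strand, the 250 bases before the RefSeq start of *Ibsp* (chr5:104299037-104299286, plus strand), *Ifitm5* (chr7:140950244-140950493, minus strand), *Alpl* (chr4:137796385-137796634, minus strand), *Spp1* (chr5:104434861-104435110, plus strand) and *Bglap* (chr3:88384467-88384716, minus strand). Capitals mark matches, on either strand, of the RUNX core TGTGGT, the GC box GGGCGG or the TATA box TATAAA.
Ibsp: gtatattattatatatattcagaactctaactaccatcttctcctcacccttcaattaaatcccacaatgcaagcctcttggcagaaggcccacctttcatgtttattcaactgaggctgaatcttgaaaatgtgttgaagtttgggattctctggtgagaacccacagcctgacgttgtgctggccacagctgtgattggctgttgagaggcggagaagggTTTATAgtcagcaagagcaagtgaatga
Ifitm5: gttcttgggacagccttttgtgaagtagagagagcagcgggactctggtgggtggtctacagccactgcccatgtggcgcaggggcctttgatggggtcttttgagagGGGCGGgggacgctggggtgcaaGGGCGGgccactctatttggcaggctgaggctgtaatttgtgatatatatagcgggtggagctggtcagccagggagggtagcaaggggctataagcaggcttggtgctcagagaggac
Alpl: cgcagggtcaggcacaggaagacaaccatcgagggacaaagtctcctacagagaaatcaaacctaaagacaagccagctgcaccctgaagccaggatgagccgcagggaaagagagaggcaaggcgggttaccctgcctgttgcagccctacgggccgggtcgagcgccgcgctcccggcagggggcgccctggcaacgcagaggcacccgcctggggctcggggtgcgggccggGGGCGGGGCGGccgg
Spp1: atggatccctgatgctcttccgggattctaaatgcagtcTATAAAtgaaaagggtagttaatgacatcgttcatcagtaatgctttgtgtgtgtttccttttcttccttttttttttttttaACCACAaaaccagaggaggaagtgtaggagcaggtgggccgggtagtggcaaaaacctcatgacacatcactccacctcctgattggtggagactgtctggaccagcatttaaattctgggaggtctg
Bglap: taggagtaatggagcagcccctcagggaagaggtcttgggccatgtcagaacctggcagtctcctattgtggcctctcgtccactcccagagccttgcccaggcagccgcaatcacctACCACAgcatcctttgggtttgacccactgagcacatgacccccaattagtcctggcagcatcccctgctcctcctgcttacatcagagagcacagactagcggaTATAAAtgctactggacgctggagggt

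*Bglap* had a TATA box beginning 27 bases before the start, and *Ibsp* had the reversed letters at 28 bases before it. *Ifitm5* had 2 GC boxes, at 142 and 119 bases before the start, and *Alpl* had 2 that overlap by a base, at 15 and 10 bases before it. A RUNX core stood 128 bases before the start of *Spp1* and 132 bases before that of *Bglap*. Over all 32851 windows of 300 bases (250 before to 50 after the start), 16.8% held the RUNX core, 35.7% the GC box and 13.6% the TATA box. Of the 8 genes with a window, 3, 3 and 4 held these in any window. The homeodomain core TAATTA was in a window of 1 gene (5.29% of all windows) and the CAGA box CAGACA, known from SMAD binding, in windows of 4 genes (21.04% of all windows). The TATA box was added to the search after the matches of the other motifs had been seen, the matches are letters and not sites, and a window without a match says only that these letters are not in it. The GENCODE models of *Ibsp* and *Ifitm5* begin upstream of the RefSeq start, so the last part of each of these windows lies inside the gene in that annotation.

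*Spp1*, *Ibsp* and *Dmp1* stand together on chromosome 5 within 238438 bases. *Dmp1* lies at chr5:104202613-104214102, *Ibsp* at chr5:104299171-104311469 and *Spp1* at chr5:104435118-104441050, all on the plus strand (GRCm38, GENCODE M21). The other genes lie on chromosomes 3, 4, 7, 8, 9, 11 and X. The 3 neighbours had different readouts, as the plot of levels in mesenchyme shows.

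**Figure D1:**
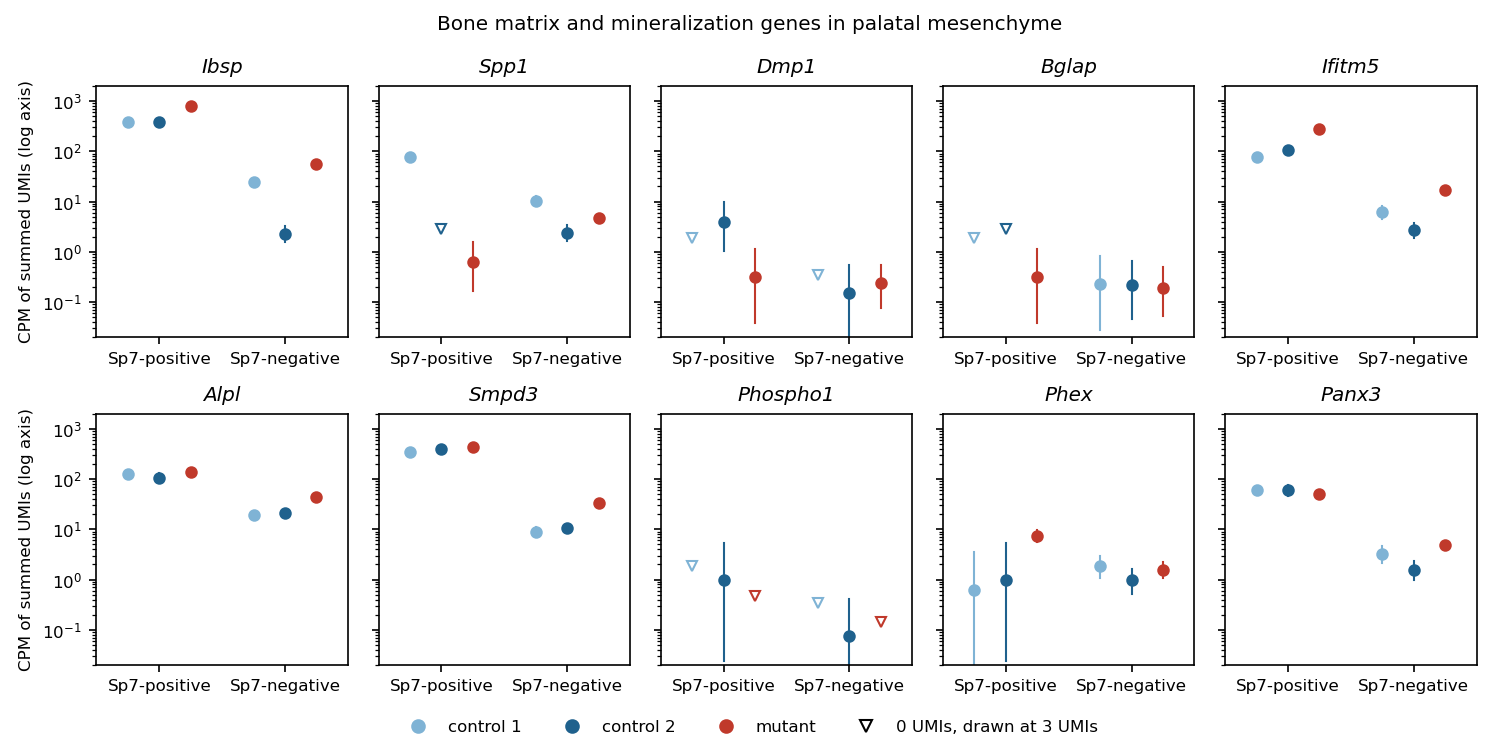
CPM of summed UMIs (log axis) of each gene in Sp7-positive and Sp7-negative mesenchyme, 1 point per library with its exact 95% Poisson interval; open triangles mark libraries with 0 UMIs, drawn at the level of 3 UMIs. Ibsp, Ifitm5, Alpl, Smpd3 and Panx3 were higher in Sp7-positive cells in each library (Ibsp 387, 391.7 and 790 against 24.99, 2.31 and 55.2 CPM), whereas Dmp1, Bglap and Phospho1 stayed at or under 4 UMIs in Sp7-positive cells of any library.

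The first comparison asked in which cells the genes were on: UMIs of Sp7-positive and of Sp7-negative mesenchyme were summed in each library and compared with library as a block. Of the 10 genes, *Ibsp*, *Ifitm5*, *Smpd3*, *Panx3*, *Alpl* and *Phex* were higher in Sp7-positive cells, 0 were lower, and 9 had enough UMIs to be tested. The same test called 5.94% of the 16125 genes tested higher and 5.67% lower (958 and 914 genes, or 760 and 1256 with library totals in place of TMM scaling). The median log2 difference of the 9 genes was 2.31, beside -0.05 over all genes tested. That median is the value of *Dmp1* (2.31 ± 1.04), which had few UMIs and was not called. The fit drew each gene's spread largely from a value shared over all genes (20.5 prior degrees of freedom). An SE or p of this comparison therefore does not measure that gene's own spread between libraries. *Sp7* set the groups and is no result.

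Among the matrix proteins, *Ibsp*, which encodes bone sialoprotein, a calcium-binding glycoprotein of mineralizing matrix, had 10285 UMIs over all cells. It was counted at 387 CPM (95% exact Poisson interval 357 to 419), 391.7 (355 to 432) and 790 (768 to 812) in Sp7-positive cells and at 24.99, 2.31 and 55.2 CPM in Sp7-negative cells. Every Sp7-positive value exceeded every Sp7-negative value. The share of all genes tested that separate in this way was not counted. This reading, here and for other genes below, is therefore a description only. The folds within libraries were 15.5, 170 and 14.3, and the log2 difference was 4.66 ± 0.31 (SE; adjusted p = 2.28e-10, edgeR's quasi-likelihood test with Benjamini-Hochberg adjustment). The call was lost with edgeR's robust option (adjusted p = 0.147), with that option in the default fit (0.186) and without the library block (0.0685), while its log2 difference lay between 3.98 and 5.64 over all settings.

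*Spp1* encodes osteopontin, an acidic phosphoprotein of bone matrix that macrophages are also known to make. It was counted at 77.9 CPM (124 UMIs in 30 cells) in Sp7-positive cells of control 1, at 0 UMIs in control 2 and at 0.62 CPM (4 UMIs) in the mutant. Control 1 alone was high. A count of 0 in control 2 allowed a level of up to 2.88 CPM, the value of 3 UMIs. In Sp7-negative cells *Spp1* was at 10.5, 2.38 and 4.63 CPM. The Sp7-positive level was 7.44 times the Sp7-negative level in control 1 and 0.13 times in the mutant. In control 2 the ratio was 1.21 with the 0 set to 3 UMIs. The log2 difference of 1.33 ± 0.51 did not pass the test (adjusted p = 0.104, edgeR). It passed with edgeR's default option (adjusted p = 0.000163), and without control 1 it was -2.89 (adjusted p = 0.0167).

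*Dmp1*, an acidic phosphoprotein of late osteoblasts and osteocytes, had 0, 4 and 2 UMIs in Sp7-positive cells and 35 over all cells. *Bglap*, which encodes osteocalcin, had 0, 0 and 2 UMIs there and 21 over all cells. Neither passed the test (adjusted p = 0.173 and 0.965, edgeR). *Bglap2* and *Bglap3*, near-identical copies of *Bglap* whose reads can be split or lost in counting, had 1 and 5 UMIs over all cells. These late genes were therefore near the limit of detection in every library.

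*Ifitm5* encodes a membrane protein known to be restricted largely to osteoblasts. Its Sp7-positive levels were 77.3 CPM (64.3 to 92.2), 108 (88.5 to 129) and 273 (261 to 286), and its Sp7-negative levels were 6.10, 2.68 and 16.7 CPM. The groups did not overlap, with folds within libraries of 12.7, 40.1 and 16.4. The log2 difference was 4.30 ± 0.17 (adjusted p = 3.39e-14, edgeR).

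Of the enzymes of mineralization, *Smpd3*, neutral sphingomyelinase 2, which is needed for mineralization and is also known from neurons, was at 346 CPM (317 to 376), 397 (359 to 437) and 437 (421 to 453) in Sp7-positive cells. Its Sp7-negative levels were 8.75, 10.6 and 33.7 CPM, so the groups did not overlap. The log2 difference of 4.65 ± 0.19 passed the test (adjusted p = 5.85e-14, edgeR), but not with the robust option (0.0621) or with the default and robust options together (0.0862).

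*Alpl* encodes tissue-nonspecific alkaline phosphatase, which breaks down pyrophosphate. It stood at 127 CPM (110 to 146), 108 (88.5 to 129) and 141 (132 to 151) in Sp7-positive cells and at 19.4, 21.5 and 44.3 CPM in Sp7-negative cells. The folds within libraries, 6.56, 5.01 and 3.19, were smaller than those of *Ibsp*, *Ifitm5*, *Smpd3* and *Panx3* in each library. The log2 difference was 2.22 ± 0.14 (adjusted p = 1.05e-10, edgeR). *Phospho1*, the phosphatase of matrix vesicles, had 0, 1 and 0 UMIs in Sp7-positive cells, 4 over all cells, and was not tested.

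*Phex*, a membrane endopeptidase whose loss causes hypophosphataemic rickets, had 1, 1 and 48 UMIs in Sp7-positive cells (0.63, 0.96 and 7.44 CPM). In Sp7-negative cells it was at 1.84, 0.97 and 1.57 CPM. Only in the mutant was the Sp7-positive level above the Sp7-negative one, by 4.72 times, against 0.34 and 0.99 times in the controls, a difference between libraries that was not tested. The log2 difference of 1.71 ± 0.40 passed the test (adjusted p = 0.00584, edgeR) and rested on the mutant library: without it the value was -0.88 (adjusted p = 0.641). The call was also lost in DESeq2 (adjusted p = 0.917), after thinning (0.204) and without the library block (0.271).

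*Panx3* encodes a channel protein of osteoblasts and maturing chondrocytes. It was at 59.7 CPM (48.3 to 73.0), 60.5 (46.5 to 77.4) and 51.3 (45.9 to 57.1) in Sp7-positive cells and at 3.23, 1.56 and 4.77 CPM in Sp7-negative cells. The groups did not overlap, and the log2 difference was 4.10 ± 0.21 (adjusted p = 3.56e-12, edgeR). Of the genes called, *Ifitm5*, *Alpl* and *Panx3* were called in all 17 settings run.

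The levels followed the number of *Sp7* UMIs. Summed over the 10 genes, cells with 1 *Sp7* UMI held 375, 305 and 830 CPM, and cells with 2 or more held 1859, 2109 and 2701 CPM. Deeper cells reach 2 UMIs more often, and this was not separated from the level of *Sp7* here.

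Other genes of the same processes were read from fixed lists. Of 24 other bone matrix and mineralization genes, 21 were tested in this comparison, 9 were higher and 3 lower in Sp7-positive cells, with a median log2 difference of 0.43. *Col22a1*, a fibril-associated collagen, was higher by 3.22 ± 0.41 on the log2 scale (adjusted p = 5.43e-06, edgeR). It was at 1.26, 1.92 and 6.66 CPM in Sp7-positive and 0.23, 0.30 and 0.67 CPM in Sp7-negative cells. Both Sp7-positive control values lay below that of 3 UMIs (1.89 and 2.88 CPM). *Cgref1*, *Omd* and *Tnn* were higher by 2.51, 1.18 and 1.16. The libraries were not alike: *Omd* was at 8.99 CPM in Sp7-positive and 8.45 CPM in Sp7-negative cells of the mutant. *Tnn* was at 22.1 and 19.1 CPM in those of control 2. *Mgp*, matrix Gla protein, an inhibitor of mineralization, was lower (log2 difference -0.63, adjusted p = 0.000871, edgeR), as were *Postn* and *Ogn* (-0.56 and -0.39), which encode matrix proteins of fibrous connective tissue. *Bgn*, at -0.24, did not pass.

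Of 21 osteoblast regulators, all tested, 12 were higher and 0 lower, with a median of 1.03. *Tcf7*, a transcription factor of Wnt signalling, was higher by 3.23 ± 0.16 (adjusted p = 3.56e-12, edgeR), *Dlx3* by 2.92, *Fgfr3* by 2.22 and *Mef2c* by 1.84. *Lef1*, *Zfp521*, *Fgfr1* and *Lrp6* had values between -0.15 and -0.06 and did not pass. The 7 osteoclast genes, markers of the cells that resorb bone, had 3 tested and 0 called. Their summed level in Sp7-positive cells was 26.4, 30.7 and 34.4 CPM, and *Dcstamp* and *Atp6v0d2* were at 0 in every library there. *Ctsk* took most of this and was at 25.1, 26.9 and 28.2 CPM.

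Of the 6 hypertrophic cartilage genes, 3 of which are among the 10, 4 were tested and 3 were higher, with a median of 3.15. *Ihh*, a hedgehog ligand of prehypertrophic chondrocytes, was the called gene that is not one of the 10 (23.3, 17.3 and 17.2 CPM in Sp7-positive cells, log2 difference 4.08 ± 0.27, adjusted p = 2.25e-10, edgeR). *Col10a1*, the defining collagen of hypertrophic cartilage, was at 0 in Sp7-positive cells of control 2 and the mutant.

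**Figure D2:**
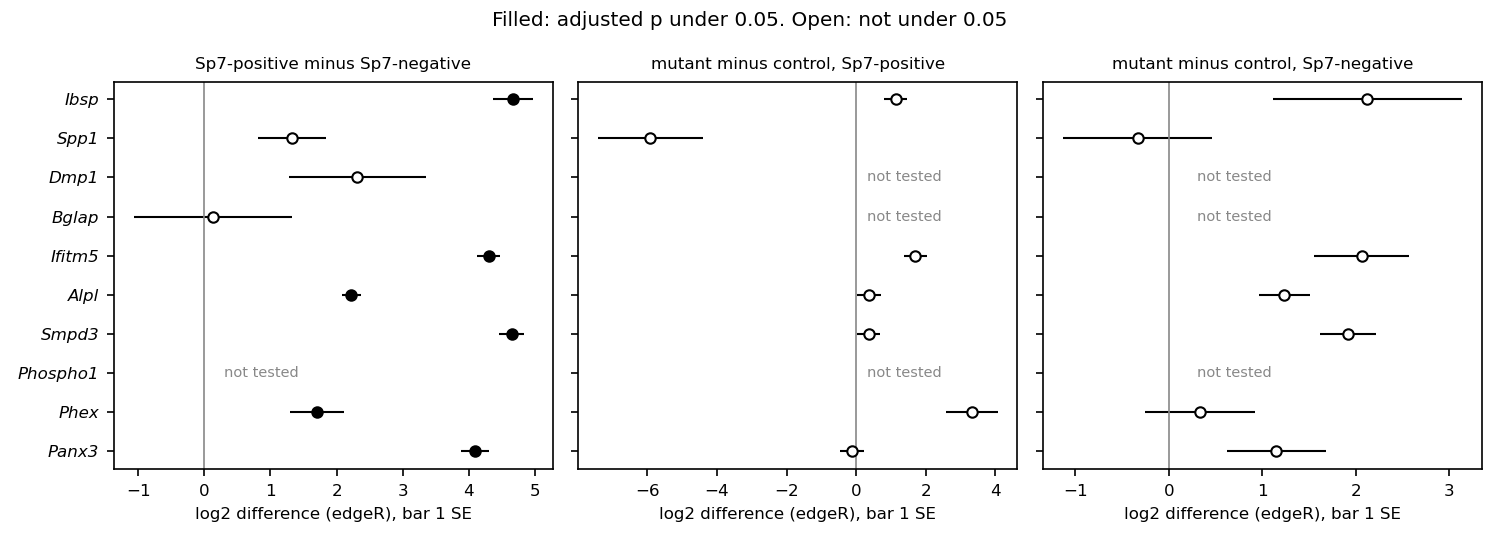
Log2 difference (edgeR) with 1 SE of each gene in the 3 comparisons, filled where the adjusted p was under 0.05. In Sp7-positive against Sp7-negative mesenchyme 6 genes are filled, and in both mutant against control panels none is, with Phex (3.32), Ifitm5 (1.70) and Ibsp (1.14) to the right and Spp1 (-5.91) to the left in Sp7-positive cells.

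The second comparison asked whether levels per Sp7-positive cell sum differed between the mutant and the controls. Of the 7 genes tested, 0 were called, as 0% of the 12770 genes tested were called in either direction, while 663 had an unadjusted p under 0.05. DESeq2 called 0 higher and 3 lower, and edgeR's default option 30 higher and 50 lower. With 1 mutant library, genotype and any other difference between libraries cannot be told apart. Only the 2 controls give replicate spread, and the mutant was assumed to vary like them. The fit drew each gene's spread largely from a value shared over all genes (12.6 prior degrees of freedom). An SE or p here therefore does not measure that gene's own difference between the controls. On simulated data the test as run missed most or all genes given a change somewhat larger than that of *Ifitm5* in this comparison, so the count of 0 does not show that levels were equal.

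*Ifitm5* was at 77.3, 108 and 273 CPM, and the mutant lay outside the controls by more than their gap. The share of all genes that met this rule was not counted, so it is given as a description only. The log2 difference of *Ifitm5*, 1.70 ± 0.33, did not pass (adjusted p = 0.117, edgeR). Over 13 settings the value ranged from 1.25 to 1.82 and passed in 5, among them edgeR's default option (adjusted p = 0.0013), that option with robust (0.0012) and library totals without TMM scaling (0.00624). Leaving out either control moved it to 1.53 or 1.86.

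*Ibsp*, at 387, 391.7 and 790 CPM, was also outside the controls by more than their gap, with a log2 difference of 1.14 ± 0.33 (adjusted p = 0.367, edgeR). That gap was 0.017 on the log2 scale, although 1 cell held 32.0% of the *Ibsp* UMIs in control 1 and 36.8% in control 2. *Ibsp* passed in 0 of 13 settings, with adjusted p between 0.0957 and 0.983. *Phex* had 48 UMIs in the mutant against 1 in each control, a log2 difference of 3.32 ± 0.74 (adjusted p = 0.163, edgeR) that passed in 3 of 13 settings. The ratio to the controls rests on those 2 control UMIs, whose intervals reached 3.50 and 5.35 CPM, below the mutant's 5.48 to 9.86.

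On CPM without TMM scaling, *Alpl* and *Smpd3* were higher and *Panx3* lower in the mutant than in both controls. Measured from the mean log2 CPM of the controls, these differences were 0.28, 0.24 and -0.23. Each exceeded in size the gap between the controls (0.24, 0.20 and 0.019). Measured from the nearer control, *Alpl* and *Smpd3* differed by less than the gap and *Panx3* by more. After TMM scaling the log2 differences of *Alpl*, *Smpd3* and *Panx3* were 0.38 ± 0.34, 0.36 ± 0.33 and -0.11 ± 0.35, each with adjusted p = 0.9997 (edgeR). The gap was not read on the TMM scale. *Panx3* at 51.3 CPM in the mutant lay within the counting intervals of both controls. *Spp1* had a fitted log2 difference of -5.91 ± 1.499 (adjusted p = 0.237, edgeR), which rested on control 1. It passed in 6 of 13 settings, the default option among them (adjusted p = 7.12e-16). In control 2 it had 0 UMIs, which allowed a level above that of the mutant.

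Other values moved with the libraries and their part in these results was not tested. In Sp7-positive cells the 8 macrophage markers summed to 47.8, 24.96 and 5.58 CPM, the 8 myogenic markers to 101, 19.2 and 4.03 CPM and the 8 epithelial markers to 79.2, 36.5 and 11.9 CPM, all highest in control 1. The 8 mural markers (70.4, 85.4 and 176 CPM) and the 8 neuronal markers (126, 127 and 171 CPM) were highest in the mutant. *Higd1b* and *Vtn* were at 0 in every library, *Elavl3* in control 1 and the mutant, and *Kcnj8* and *Abcc9* in control 2. The 8 cartilage markers were at 77.9, 145 and 98.5 CPM. *Osr2*, which drives the Cre, was at 99.3, 144 and 55.6 CPM.

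In the fixed lists 0 genes were called in this comparison. Of the regulators, *Dlx6* was at 55.9, 7.68 and 7.90 CPM and *Dlx5* at 103.1, 33.6 and 38.7 CPM, so control 1, the library with *Spp1*, was also the high one for both homeobox genes. *Kazald1*, a secreted bone protein, was at 10.7, 7.68 and 32.5 CPM (log2 difference 1.89 ± 0.43, adjusted p = 0.186, edgeR). *Col22a1* (2.20), *Col24a1* (1.44) and *Cgref1* (1.36) had positive differences that did not pass, and *Omd* (-1.11) and *Ank* (-1.003), the latter a pyrophosphate transporter, negative ones. *Col22a1* was below the value of 3 UMIs in both controls.

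The third comparison repeated this in Sp7-negative mesenchyme. Again 0 of the 7 genes tested and 0% of the 15834 genes were called, with 766 at an unadjusted p under 0.05. DESeq2 called 12 higher and 12 lower. This comparison was not simulated, and its count of 0 does not show equal levels either. *Smpd3* was at 8.75, 10.6 and 33.7 CPM, with a log2 difference of 1.92 ± 0.30 (adjusted p = 0.691, edgeR). It passed in 3 of 13 settings, among them DESeq2 (adjusted p = 0.0268) and the default option with robust (0.0153). *Alpl* at 19.4, 21.5 and 44.3 CPM (log2 difference 1.24 ± 0.27) and *Ifitm5* at 6.10, 2.68 and 16.7 CPM (2.06 ± 0.51) had adjusted p = 0.886 (edgeR), with the mutant highest for each. *Ibsp* and *Panx3* had log2 differences of 2.13 ± 1.01 and 1.15 ± 0.53. For *Ibsp* the controls differed so much (24.99 and 2.31 CPM) that leaving out 1 of them gave 4.75 or 1.20. *Phex* and *Spp1*, at 0.34 ± 0.59 and -0.33 ± 0.80, did not pass the test (edgeR), and leaving out 1 control turned the sign of either.

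The Sp7-negative mesenchyme was not uniform. Cells with a UMI of both *Runx2* and *Dlx5* and none of *Sp7*, which numbered 93, 31 and 137, held the 10 genes at a summed 228, 215 and 651 CPM. Cells gated by perimysial markers, the fibroblasts that surround muscle, held 47.0, 33.3 and 56.3 CPM, and the remaining mesenchyme 60.0, 39.2 and 146 CPM. The summed levels in Sp7-positive cells were 1075, 1070 and 1701 CPM. In each library the interval of the *Runx2* *Dlx5* cells lay below that of the Sp7-positive cells and above those of the other 2 groups. *Ibsp* in *Runx2* *Dlx5* cells was at 87.2, 20.2 and 242 CPM and *Smpd3* at 28.0, 94.1 and 172 CPM, so the controls disagreed in which of them was higher.

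**Figure D3:**
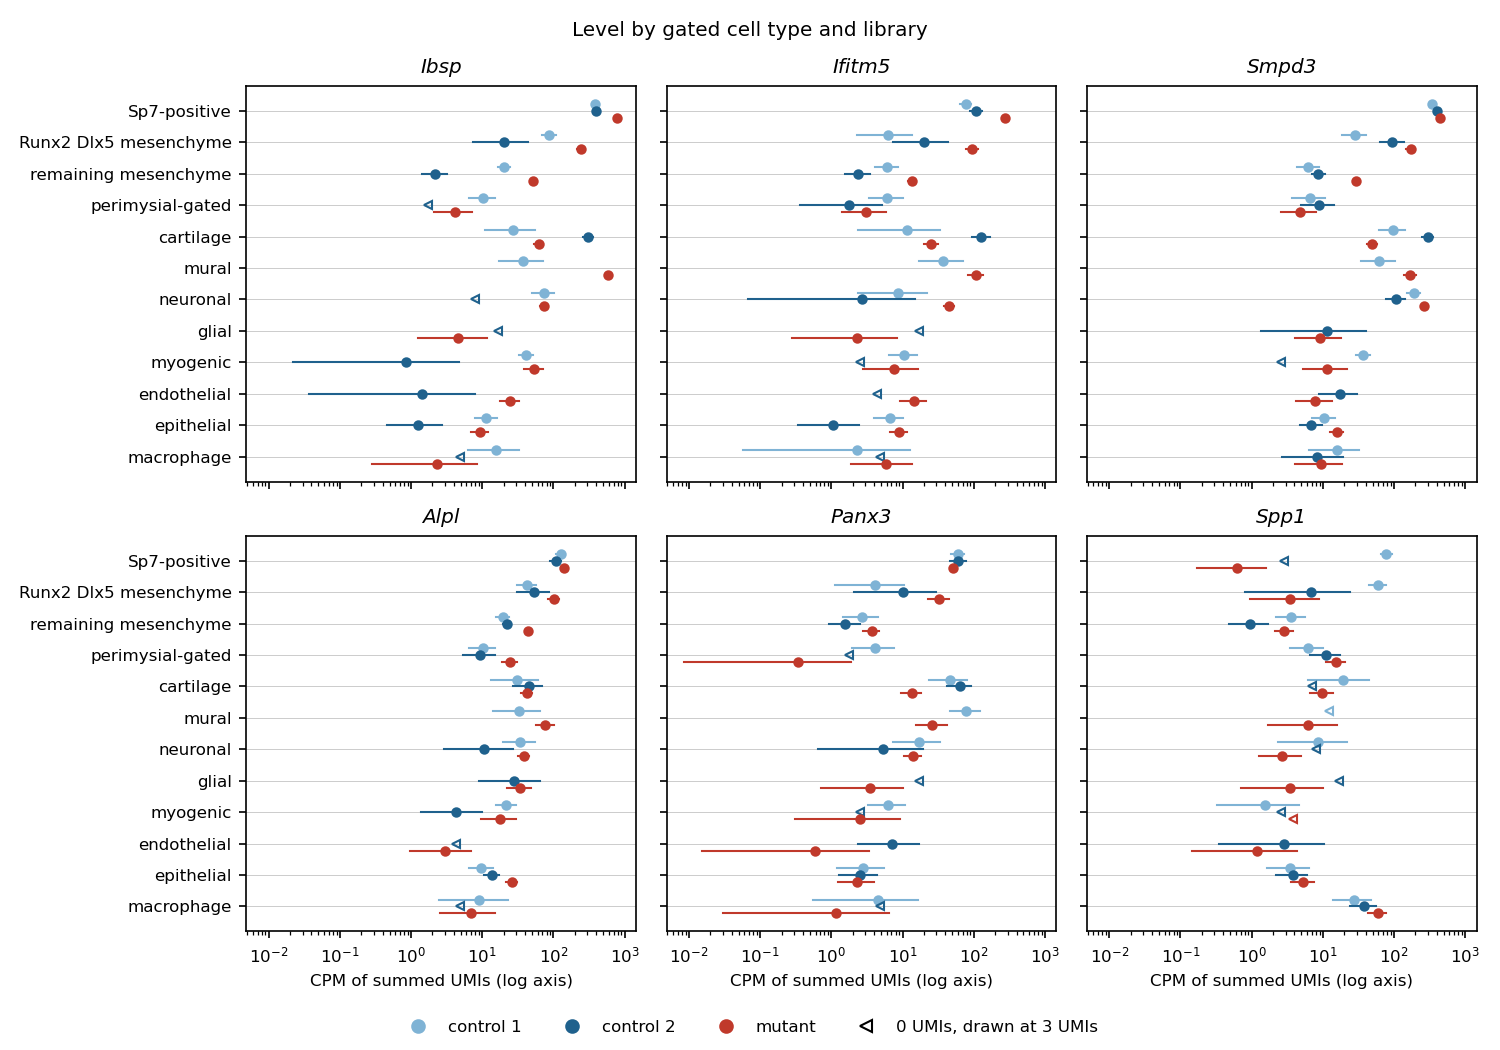
CPM of summed UMIs (log axis) of 6 genes in each gated cell type with at least 20 cells, 1 point per library with its exact 95% Poisson interval; open triangles mark 0 UMIs, drawn at the level of 3 UMIs. Ibsp, Ifitm5, Smpd3, Alpl and Panx3 reach high values in Sp7-positive cells, mural-gated cells of the mutant hold Ibsp at 582 CPM, and Spp1 reaches 27.1, 37.6 and 58.7 CPM in macrophage-gated cells.

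Outside the mesenchyme, the 10 genes together were at 119, 6.85 and 96.0 CPM in myogenic cells and between 30.6 and 84.5 CPM in epithelial and macrophage-gated cells. For *Ibsp* these background types held 11.5, 1.26 and 9.25 CPM (epithelial), 15.8, 0 and 2.35 CPM (macrophage) and 41.7, 0.86 and 53.0 CPM (myogenic). Control 2 was thus the lowest of the libraries in each, as it was in Sp7-negative mesenchyme. In myogenic cells *Ibsp* had a UMI in 19 of 133, 1 of 121 and 2 of 102 cells, so the mutant's value rested on 2 cells. *Spp1* in macrophage-gated cells was at 27.1, 37.6 and 58.7 CPM, above the Sp7-positive cells of control 2 and the mutant.

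Cells gated as mural, the contractile cells of small vessels, held *Ibsp* at 582 CPM in the mutant. The 17 of these 67 cells with an *Sp7* UMI held 1254 CPM and the other 50 held 2.88 CPM (1 UMI). Neuronal-gated cells of the mutant held *Ibsp* at 73.0 CPM, with 314 CPM where *Sp7* had a UMI and 5.48 CPM where it had none, whereas *Smpd3* stayed at 217 CPM in neuronal-gated cells of the mutant without an *Sp7* UMI. Cartilage-gated cells of control 2 held *Ibsp* at 308 CPM in 39 cells, with 130 UMIs in 5 cells. When the mural and neuronal gates were not used, a setting chosen after these values had been seen, the second comparison called *Ifitm5* (adjusted p = 0.00126), *Phex* (0.0263) and *Spp1* (1.20e-16) by edgeR, in directions as before.

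Of all *Ibsp* UMIs, 51.9%, 68.8% and 59.9% were in Sp7-positive mesenchyme, which held 7.59%, 4.14% and 11.9% of all UMIs. The same shares were 52.3%, 50% and 51.0% for *Smpd3*, 39.3%, 52.1% and 58.8% for *Ifitm5* and 40.3%, 46.3% and 49.0% for *Panx3*. For *Alpl* they were 34.2%, 20.8% and 31.9%. Most UMIs of *Alpl*, and also of *Panx3*, thus lay elsewhere in each library. Elsewhere includes 71, 49 and 319 cells with an *Sp7* UMI that were not gated as mesenchyme. Sp7-negative mesenchyme held 28, 21 and 100 of the 236, 136 and 676 *Panx3* UMIs. For *Alpl* it held 168, 288 and 928 of 590, 538 and 2858.

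**Figure D4:**
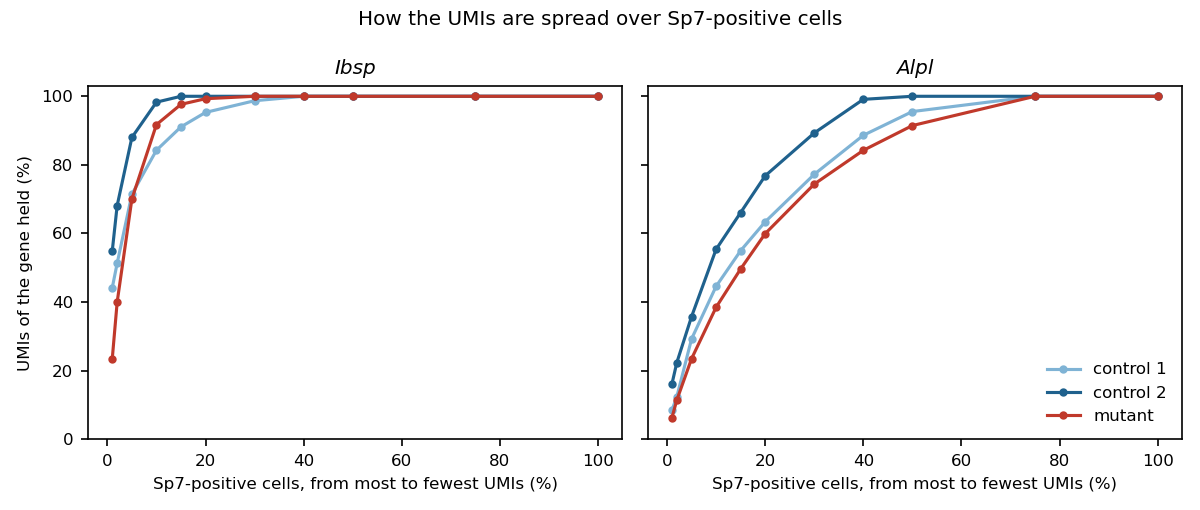
Percent of the Ibsp and Alpl UMIs of the Sp7-positive cells held by the cells with the most UMIs, ranked within each library. The 10% of cells with the most Ibsp UMIs held 84.3%, 98.3% and 91.7% of them in control 1, control 2 and the mutant, while the curves of Alpl rise more slowly.

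Within Sp7-positive cells the genes were spread unevenly. *Ibsp* had a UMI in 51, 15 and 166 cells, and 5 cells held 61.7%, 84.6% and 17.8% of its UMIs. The highest cell of control 1 held 32.0% of them (197 UMIs) and that of control 2 held 36.8% (150 UMIs). The library levels of *Ibsp* in the controls thus rested on few cells. *Alpl* had a UMI in 80, 48 and 410 cells, and its highest 5 cells held 20.3%, 32.1% and 4.60%. For *Smpd3* these 5 cells held 35.5%, 39.95% and 5.46% and for *Ifitm5* 63.4%, 71.4% and 12.3%. The top 5 are a larger share of 142 or 117 cells than of 663.

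After thinning to 2000 UMIs per cell, *Smpd3* had a UMI in 19.0% (12.9 to 26.4), 23.5% (16.1 to 32.3) and 38.4% (34.7 to 42.3) of Sp7-positive cells, and *Ifitm5* in 5.63% (2.46 to 10.8), 8.70% (4.25 to 15.4) and 19.97% (17.0 to 23.2). For both genes the mutant's interval lay above those of the controls. These intervals count cells and leave out the spread between libraries, so a difference by genotype was not tested. How many of all genes separate in this way was not counted, so this is a description only. The cells were picked by an *Sp7* UMI before thinning, at depths that differed between libraries, and thinning afterwards does not undo that choice. *Alpl* (21.1%, 13.9% and 23.3%) and *Panx3* (9.15%, 8.70% and 8.84%) had intervals that overlapped between all libraries. *Ibsp* had a UMI in 19.0%, 8.70% and 18.3% of cells, an order that did not follow its CPM. Unthinned, the shares were 26.8%, 33.3% and 53.8% for *Smpd3*, 17.6%, 17.9% and 31.7% for *Ifitm5*, 56.3%, 41.0% and 61.8% for *Alpl*, 24.6%, 21.4% and 28.2% for *Panx3* and 35.9%, 12.8% and 25.04% for *Ibsp*.

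The background was read in macrophage-gated cells, with median depths of 9829, 6193 and 5160 UMIs beside 9929, 7164 and 8161 in Sp7-positive cells. There *Smpd3* had a UMI after thinning in 0%, 3.66% and 2.16% of cells, *Alpl* in 2.63%, 0% and 0.719% and *Ibsp* in 0%, 0% and 0.719%, while *Ifitm5* and *Panx3* had 0. A share of 0 of the 38 macrophage-gated cells of control 1 is compatible with up to 9.25% (exact Clopper-Pearson). Unthinned, *Ibsp* had a UMI in 15%, 0% and 1.42% of macrophage-gated cells. Other types gave other values. After thinning *Ibsp* was in 2.79%, 0.524% and 0.787% of epithelial and 3.76%, 0% and 2% of myogenic cells. *Alpl* was in 0.930%, 1.57% and 2.95% and *Ifitm5* in 0.465%, 0.262% and 1.18% of thinned epithelial cells. Any of the 10 genes was found in 45.1%, 32.2% and 54.3% of thinned Sp7-positive cells, in 12.1%, 6.58% and 11.6% of Sp7-negative and in 2.63%, 7.32% and 8.63% of macrophage-gated cells. The macrophage-gated shares include *Spp1*, which macrophages are known to make. It had a UMI in 0, 3 and 7 of these thinned cells, beside 1, 6 and 12 with any of the 10. *Phex* after thinning was in 0, 0 and 9 Sp7-positive cells.

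**Figure D5:**
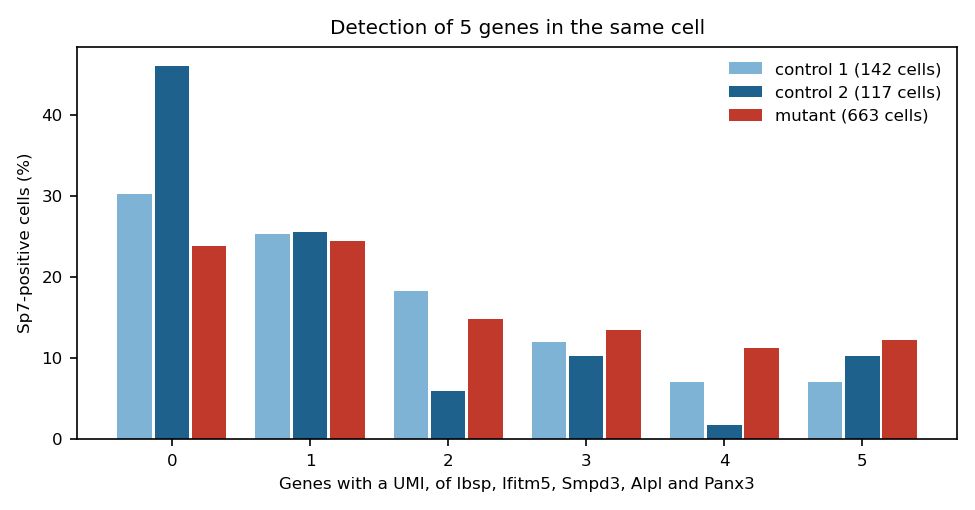
Percent of Sp7-positive cells of each library by how many of Ibsp, Ifitm5, Smpd3, Alpl and Panx3 had a UMI. All 5 were found in 7.04%, 10.3% and 12.2% of cells and none in 30.3%, 46.2% and 23.8%, with fewer cells at 4 than at 5 in control 2 and the mutant.

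The 5 genes that were higher in Sp7-positive cells in each library were also read in the same cells. This set was taken after the levels had been seen and is given as a description. All 5 had a UMI in 10 of 142, 12 of 117 and 81 of 663 cells, and none in 43, 54 and 158. Of the cells with *Ibsp*, 41.2%, 100% and 93.4% also had *Smpd3*, against 18.7%, 23.5% and 40.6% of the cells without it. For *Ifitm5* these shares were 27.5%, 93.3% and 82.5% against 12.1%, 6.86% and 14.7%. Control 1 thus held more cells with *Ibsp* and without *Smpd3* or *Ifitm5* than the other libraries. Deeper cells detect more of every gene: cells with *Ibsp* had a median of 10461, 11621 and 9598 UMIs and those without 9790, 6829 and 7533.

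Cells with and without *Ibsp* also differed in other members on the CPM scale. *Ifitm5* was at 159, 608 and 862 CPM in Sp7-positive cells with *Ibsp* and at 29.0, 8.06 and 45.1 CPM in those without. *Phex* in the mutant was at 20.5 CPM (14.46 to 28.3) with *Ibsp* and 2.36 CPM (1.18 to 4.23) without. *Spp1* in control 1 was at 149 CPM with and 36.0 CPM without.

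Over 36 cell type by library sums, the genes whose log2 CPM followed the sum of the 10 most closely were *Tcf7* (Pearson's r = 0.83), *Pth1r* (0.78), *Ihh* (0.78), *Slc8a3* (0.78), *Tmem119* (0.78), *Clec11a* (0.76), *Sgms2* (0.75), *Wif1* (0.75), *Tnn* (0.74) and *Runx3* (0.70), of 13545 genes compared. *Pth1r*, the receptor of parathyroid hormone and its related peptide, was at 221, 325 and 259 CPM in Sp7-positive cells. *Sgms2*, sphingomyelin synthase 2, was at 14.46, 43.2 and 74.7 CPM. Each member was also set against the sum of the other members. *Ifitm5* (0.87), *Ibsp* (0.83), *Smpd3* (0.82), *Panx3* (0.78) and *Alpl* (0.66) followed it, whereas *Phex* (0.30), *Dmp1* (0.19), *Bglap* (0.10), *Phospho1* (0.04) and *Spp1* (-0.12) did so weakly or not at all. The sums share libraries, depths and gates, and the sparse genes have few UMIs to follow anything, so these are descriptions without a test.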

How the data were processed

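The 3 libraries were made with the 10x Genomics 3′ v2 kit. The authors deposited raw UMI counts per gene and barcode from Cell Ranger, without normalization; the methods and file headers give version 4.0.0, whereas the submitters' processing notes give 3.1.0 and mm10. Coordinates come from GENCODE M21 (GRCm38), which matched 32158 of 32285 genes by identifier.

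Barcodes under 500 genes or over 10% mitochondrial UMIs were dropped. Scrublet (scanpy 1.11.5) marked 0 barcodes by its own threshold, so the highest scores were left out, 59, 132 and 597 of the barcodes that passed. A type needed 3 of 8 markers, and cells reaching 2 types (ambiguous) were left out; mesenchyme needed 2 of 8. Counts were summed per library and class. CPM has exact Poisson and shares have exact Clopper-Pearson 95% intervals. PCR duplicates are collapsed by UMIs, and intervals and floors (3 UMIs) cover counting error only. Nothing says whether the control libraries came from separate embryos, so p-values reach no further than these libraries. In the main edgeR fits the spread was drawn largely from a value shared over all genes, not from each gene alone.

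Sums were tested with edgeR 4.0.16 (quasi-likelihood, TMM, genes with at least 10 UMIs, Benjamini-Hochberg over all genes tested, threshold 0.05), with library as a block in the first comparison, since both sums come from the same library, and no covariate in the others. The test had been specified without edgeR's legacy and robust options. All 4 combinations, with the calls they gave, were seen before legacy=FALSE without robust was taken, so this choice is not independent of the results; the plain call of this version is legacy=TRUE, which gave unlimited prior degrees of freedom in the first and second comparisons. On simulated data the option taken recovered nearly all changed genes in the first comparison, but in the second it missed most or all genes changed by somewhat more than *Ifitm5* was, of which edgeR's default recovered most. The third was not simulated. DESeq2 1.42.0 and the other settings are reported in the closing section.

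All 10 genes were named, and from each list up to 4 of the highest and 4 of the lowest log2 differences, of which 1 gene is not reported here. The 10 genes, lists, gates and tests were chosen with earlier results of these data known. Motifs were searched in RefSeq promoter windows, the TATA box after the others had been seen.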

Additional observations from a re-analysis of the deposited data

Results flagged for a closer look

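The ratio of *Phex* in Sp7-positive over Sp7-negative mesenchyme was 4.72 in the mutant, whereas it was below 1 in both controls (0.34 and 0.99). The difference between the libraries was not tested, and each control value rests on 1 Sp7-positive UMI. Cells left out as ambiguous, because they reached the marker threshold of more than 1 type, held *Ibsp* at 169 CPM (160 to 179) in the mutant, above 47.4 and 2.22 CPM in the controls. In the same cells *Alpl* was at 64.1 CPM against 29.9 and 17.0 CPM, *Ifitm5* at 63.6 CPM against 20.02 and 0.74 CPM, and *Smpd3* at 84.5 CPM against 51.3 and 8.87 CPM. Their median depths were 21510, 27474 and 25909 UMIs, and 29, 5 and 123 of the 146, 45 and 277 ambiguous cells had an *Sp7* UMI. Each group had fewer than 4 libraries, so single libraries were not tested for standing apart.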

How the results depend on the processing

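In Sp7-positive against Sp7-negative mesenchyme 958 genes were higher and 914 lower. These counts became 1094 and 1066 with edgeR's default option, 1007 and 988 with robust, 1088 and 1064 with default and robust, 537 and 314 in DESeq2, 296 and 330 after thinning and 760 and 1256 with library totals. Without the replicate block they were 74 and 8. Leaving out a library gave 197 to 534 higher and 125 to 357 lower. Leaving out 1 library gave *Phex* values of -0.88 (without the mutant) to 2.12; *Spp1* was -1.49 in DESeq2 and -2.89 without control 1, with 2.62 without the mutant, and *Bglap* -0.069 in DESeq2.

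In Sp7-positive cells, mutant against control, the count of 0 called (0 of the 10 genes) became 5 higher and 13 lower (1 of the 10) with 2 or more *Sp7* UMIs, 93 and 155 (3) with all cells regardless of type, 2 and 5 (1) after thinning, 25 and 43 (1) with default and robust, 30 and 50 (2) with the default, 24 and 77 (3) with library totals, 54 and 87 (3) without the mural and neuronal gates, and 0 and 3 in DESeq2; robust alone gave 0 and 0. In Sp7-negative mesenchyme the 0 became 12 and 12 (1 of the 10) in DESeq2, 135 and 5 (1) with all cells, 11 and 1 (1) with default and robust, 5 and 2 with library totals and 9 and 1 without the mural and neuronal gates; the default and robust options alone gave 0. There *Spp1* was 0.16 with all cells and 0.33 after thinning, and *Phex* -1.07 after thinning. Without control 1 and without control 2, values with no test, *Spp1* there was 1.13 and -1.12 and *Phex* 0.87 and -0.17, beside -0.33 and 0.34 with both. The cause of these changes was not tested. The edgeR options, the gates and *Sp7* counted after thinning were chosen after seeing the data.

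With 2 or more *Sp7* UMIs, Sp7-positive shares were 4.79%, 1.47% and 5.93%, and with *Sp7* counted after thinning 3.19%, 1.91% and 5.78%. The summed level of the 10 genes (1075, 1070 and 1701 CPM) became 1859, 2109 and 2701 with 2 or more UMIs, 813, 847 and 1127 with all cells, 933 and 835 in the controls after thinning and 1573 in the mutant with doublets kept. The share with any of the 10 became 61.0%, 60.5% and 72.0% with 2 or more UMIs. Of the other values of counts and shares under other settings, 100 stayed within 1.5 times the reported count or within counting error. Of the tested values of single genes, 269 kept direction and side of the threshold, 21 gained a call, 8 lost one and 7 reversed. Of the 27 without a test, 7 moved by more than the spread between the controls and 2 turned sign.

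Without TMM the median log2 difference of all genes shifted from -0.05 to -0.13 in the first comparison, from -0.00046 to -0.11 in the second and from -0.01 to -0.13 in the third. The first comparison was paired by the library block. No paired analysis was possible because the mutant has no replicate number to match with the controls in the other two comparisons, where leaving out a control leaves values without a test.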
